A study of Mus musculus with 10 samples.

Results

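The protein-coding genes of the mitochondrial ribosome that carry an Mrps or Mrpl symbol were compared between mammary tumors with and without a guide RNA against Wwtr1, the gene of the Hippo effector TAZ. Members were all protein-coding genes of the count table whose symbol starts with Mrps or Mrpl followed by a number, 78 of 17864 genes in the table, of which 29 have an Mrps and 49 an Mrpl symbol. None was lost: the annotation holds 78 such symbols, each had its own entry in the table, and all 78 passed the filter on low counts, which 14816 genes passed. RNA was extracted from whole tumors grown from 4T1 cells, a triple-negative mammary carcinoma line of the BALB/c mouse, in the mammary fat pad of female BALB/c mice that were 6 to 8 weeks old at injection. All tumors came from 4T1 cells that carry Cas9. In 5 tumors the cells also carried a control guide (sgCon) and in 5 a guide against Wwtr1 (sgTaz), and no other treatment is given in the labels. Only the injected tumor cells carry Cas9 and a guide, so that fibroblasts, vessels and immune cells of the mouse were not targeted, and whether each cell population was a pool or a single clone is not stated.

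Mitochondria keep their own ribosome, which translates the few messenger RNAs of mitochondrial DNA into core subunits of the respiratory chain and of ATP synthase. Its ribosomal RNAs are transcribed in the organelle, whereas all its proteins are encoded in the nucleus, made in the cytosol and imported. Some of these proteins descend from the bacterial ancestor and have a counterpart in the bacterial ribosome, and others were added during evolution and are found only in mitochondria. The symbols do not follow the structure in every case: Mrps18a and Mrps30 belong to the large subunit, and Mrps36 is a component of the 2-oxoglutarate dehydrogenase complex of the citric acid cycle. By structure, the 78 members therefore comprised 26 proteins of the small subunit, 51 of the large subunit and 1 that is no ribosome subunit. Of the 77 subunits, the subunit nomenclature counts 46 as having a bacterial homologue and 31 as specific to mitochondria, with Mrps18a and Mrps18b, paralogues of Mrps18c, among the latter. The genes lie on 17 chromosomes, with 11 on chromosome 11 and 8 on chromosome 17.

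The promoters of these genes are shown first, with the short sequence elements of factors that are known from mitochondrial biogenesis and of TEAD factors, through which TAZ acts. A window from 250 bases before to 50 bases after the RefSeq transcription start was found for 69 members and compared with 10871 windows of genes tested, both strands being searched. The letters CCGGAAG, which ETS factors such as GABPA bind, occurred in 24 windows of members (34.8%) and in 17.6% of all windows. The letters AAGATGGC, known from the factor YY1, occurred in 12 windows (17.4%, against 4.53% of all), and the NRF1 element, GCGC followed by any base and TGCGC, in 13 (18.8%, against 9.92%). CATTCC, the letters that TEAD factors bind, occurred in 8 windows (11.6%) and in 12.1% of all. The 8 include Mrps11 and Mrpl46, whose windows overlap and share the same 2 matches. The E-box CACGTG was found in 5 windows (7.25%, against 10.02%), the GC box GGGCGG in 34 (49.3%, against 63.2%) and CCAAT in 27 (39.1%, against 38.4%). The median GC content was 58.3% in windows of members and 60.7% in all. A match is a match of letters and no evidence of binding. The 150 bases before the RefSeq start are printed for members whose windows show the different kinds of element, with the NRF1, ETS, YY1 and TEAD letters in capitals and all other letters, GC boxes and CCAAT included, in lower case, namely an NRF1 element in Mrpl12 and Mrpl32, ETS elements in Mrpl43, a YY1 element in Mrps11 (printed as its reverse complement) and TEAD letters in both orientations in Mrpl46, the neighbor of Mrps11 on the other strand, whose window overlaps with that of Mrps11.
Mrpl12 (GRCm38.p6 chr11:120484487-120484636, plus strand): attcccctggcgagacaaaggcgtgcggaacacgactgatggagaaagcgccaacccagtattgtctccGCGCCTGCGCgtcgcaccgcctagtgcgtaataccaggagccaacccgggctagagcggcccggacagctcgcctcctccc
Mrpl32 (GRCm38.p6 chr13:14613038-14613187, minus strand): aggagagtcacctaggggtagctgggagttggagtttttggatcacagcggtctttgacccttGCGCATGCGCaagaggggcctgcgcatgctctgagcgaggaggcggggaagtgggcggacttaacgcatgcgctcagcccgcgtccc
Mrpl43 (GRCm38.p6 chr19:45006443-45006592, minus strand): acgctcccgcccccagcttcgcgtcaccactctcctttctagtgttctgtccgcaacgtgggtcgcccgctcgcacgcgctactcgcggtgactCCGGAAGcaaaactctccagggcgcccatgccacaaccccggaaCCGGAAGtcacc
Mrps11 (GRCm38.p6 chr7:78782981-78783130, plus strand): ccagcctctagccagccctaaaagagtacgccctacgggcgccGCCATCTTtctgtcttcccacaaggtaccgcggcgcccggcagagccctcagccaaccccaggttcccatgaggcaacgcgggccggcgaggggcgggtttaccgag
Mrpl46 (GRCm38.p6 chr7:78783090-78783239, minus strand): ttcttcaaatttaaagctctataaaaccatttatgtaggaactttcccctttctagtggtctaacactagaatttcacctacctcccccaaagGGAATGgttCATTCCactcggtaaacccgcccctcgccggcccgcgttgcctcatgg

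A protein-coding gene starting on the opposite strand within 1000 bases of the start was found for 33 members (42.3%), against 15.4% of 13314 protein-coding genes tested. Mrps11 and Mrpl46, a protein of the small and one of the large subunit, are each other's neighbor. Of the 31 neighbors that were tested, 4 were lower in sgTaz tumors at an unadjusted p below 0.05 by edgeR (all genes: 11.9%). At that p 3 were higher (all genes: 9.86%), and none had an adjusted p below 0.05 by edgeR. Their median log2 fold change was -0.070. Fau, which encodes a ubiquitin-like protein fused to a cytosolic ribosomal protein and starts beside Mrpl49, had a log2 fold change of -0.77 ± 0.14 (SE, edgeR, adjusted p = 0.0824), while Mrpl49 was at -0.13.

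Each tumor gave between 12185383 and 19595821 counts, with a median of 17155103 in sgCon and 15566873 in sgTaz tumors, and 77 of the 78 members had at least 100 counts in every tumor. Wwtr1, the targeted gene, was at 163.1 ± 30.2 CPM (counts per 1000000) in sgCon and at 108.1 ± 19.2 CPM in sgTaz tumors (SD, n = 5 each), a log2 fold change of -0.59 ± 0.15 (SE, edgeR, adjusted p = 0.0960) that DESeq2 and limma-voom placed at adjusted p = 0.0130 and 0.0280. In each group 1 library stood apart from the others of that group by lymphocyte RNA. The summed level of 10 B cell markers reached 1067 CPM in sgCon tumor 3, against 79.2 to 491 CPM in the other sgCon tumors. It was 251 CPM in sgTaz tumor 5, against 8.07 to 25.3 CPM in the other sgTaz tumors. This value of sgTaz tumor 5 lay within the range of the sgCon tumors. CPM values are scaled by TMM factors, and log2 fold changes are sgTaz against sgCon from edgeR, negative where sgTaz is lower.

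The levels of the members spanned a wide range, and every member was detected in every tumor. On the scale of TPM, which divides counts by exon length before they are scaled to 1000000, the mean over all 10 tumors ran from 3.64 for Mrpl53 to 199 for Mrpl52, a 54.8-fold range, with a median of 37.1 TPM and an interquartile range from 24.5 to 71.0 TPM. The median of all genes tested was 18.8 TPM. Mrpl52, a mitochondria-specific protein of the large subunit, was at 209 ± 13.5 TPM in sgCon and at 189 ± 27.5 TPM in sgTaz tumors (SD, n = 5 each). Mrps21, a small-subunit protein with a bacterial homologue, was at 197 ± 12.6 and 180.2 ± 17.4 TPM, and differed from Mrpl52 by less than the SD of Mrpl52 in both groups. Mrpl12, which forms the stalk that recruits translation factors, followed with 174 ± 25.3 and 160 ± 16.7 TPM. At the other end stood Mrps10 with a mean of 8.60 TPM, Mrps35 with 6.48 TPM and Mrpl53. Mrpl53 (GRCm38 chr6:83109040-83109939) had only 5 counts in the tumor with the fewest, and 88.0% of its exon bases are also annotated to a second gene on the same strand, so that its low level is uncertain.

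**Figure D1:**
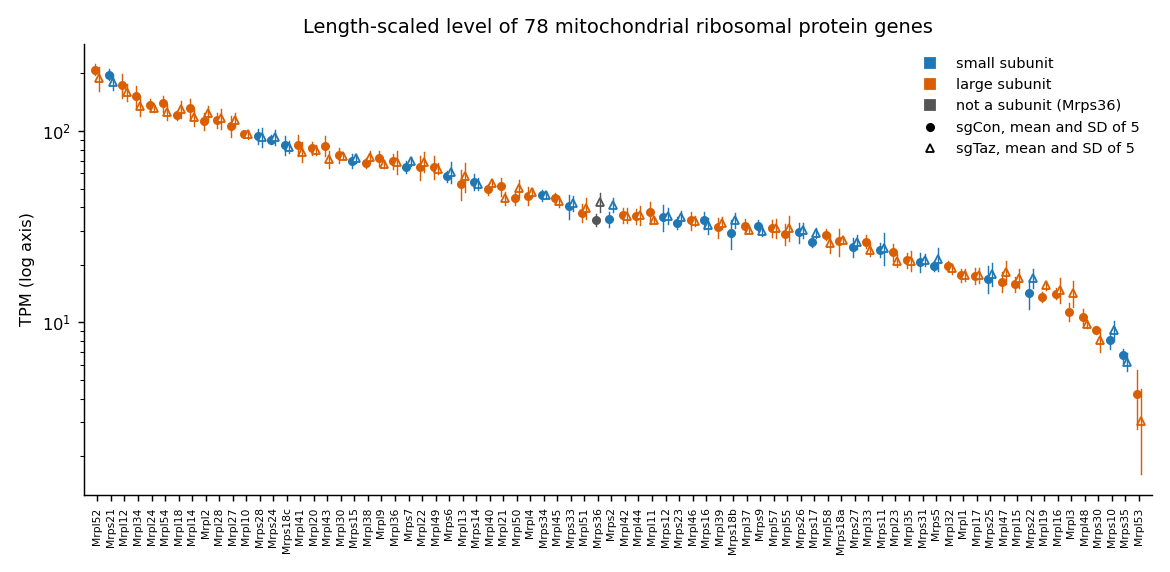
TPM (log axis) of the 78 genes ordered by their mean over 10 tumors, with circles for the mean of 5 sgCon tumors, triangles for the mean of 5 sgTaz tumors and bars for the SD. The members run from 199 TPM for Mrpl52 to 3.64 TPM for Mrpl53, and the means of both groups lie close together along the whole range.

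No mitochondrial ribosomal protein gene passed the test between sgTaz and sgCon tumors. By edgeR's quasi-likelihood test none of the 78 members had an adjusted p below 0.05, and the adjusted p ran from 0.114 to 0.997. Over all genes tested, 0.00675% were called higher and 0% lower, so this count of 0 does not set the members apart. At an unadjusted p below 0.05, 0 members were higher (all genes: 9.86%) and 12 were lower in sgTaz tumors (15.4% of members, all genes: 11.9%). DESeq2 called no member at an adjusted p below 0.05 (all genes: 3.6% higher, 3.62% lower). Limma-voom with quality weights called 2 lower, Mrpl21 and Mrpl33, and none higher (all genes: 5.8% lower, 4.63% higher).

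The fold changes were small, and most pointed to lower levels in sgTaz tumors. The log2 fold change was below 0 for 58 of 78 members (all genes: 53%) and ranged from -0.53 for Mrpl53 to 0.22 for Mrpl3. The median was -0.089 over the members and -0.019 over all genes tested. For 71 members (91.0%) the 95% interval of the log2 fold change lay within -0.5 to 0.5, which held for 48.2% of all genes. The 7 exceptions were Mrpl12, Mrpl21, Mrpl34, Mrpl41, Mrpl43, Mrpl53 and Mrps30, all in the large subunit and each with a lower bound beyond -0.5. For these 71 members a change of more than 0.5 on the log2 scale in either direction lay outside the interval that 5 tumors a group gave. In whole tumors, fewer cells of a kind and less RNA per cell cannot be told apart.

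**Figure D2:**
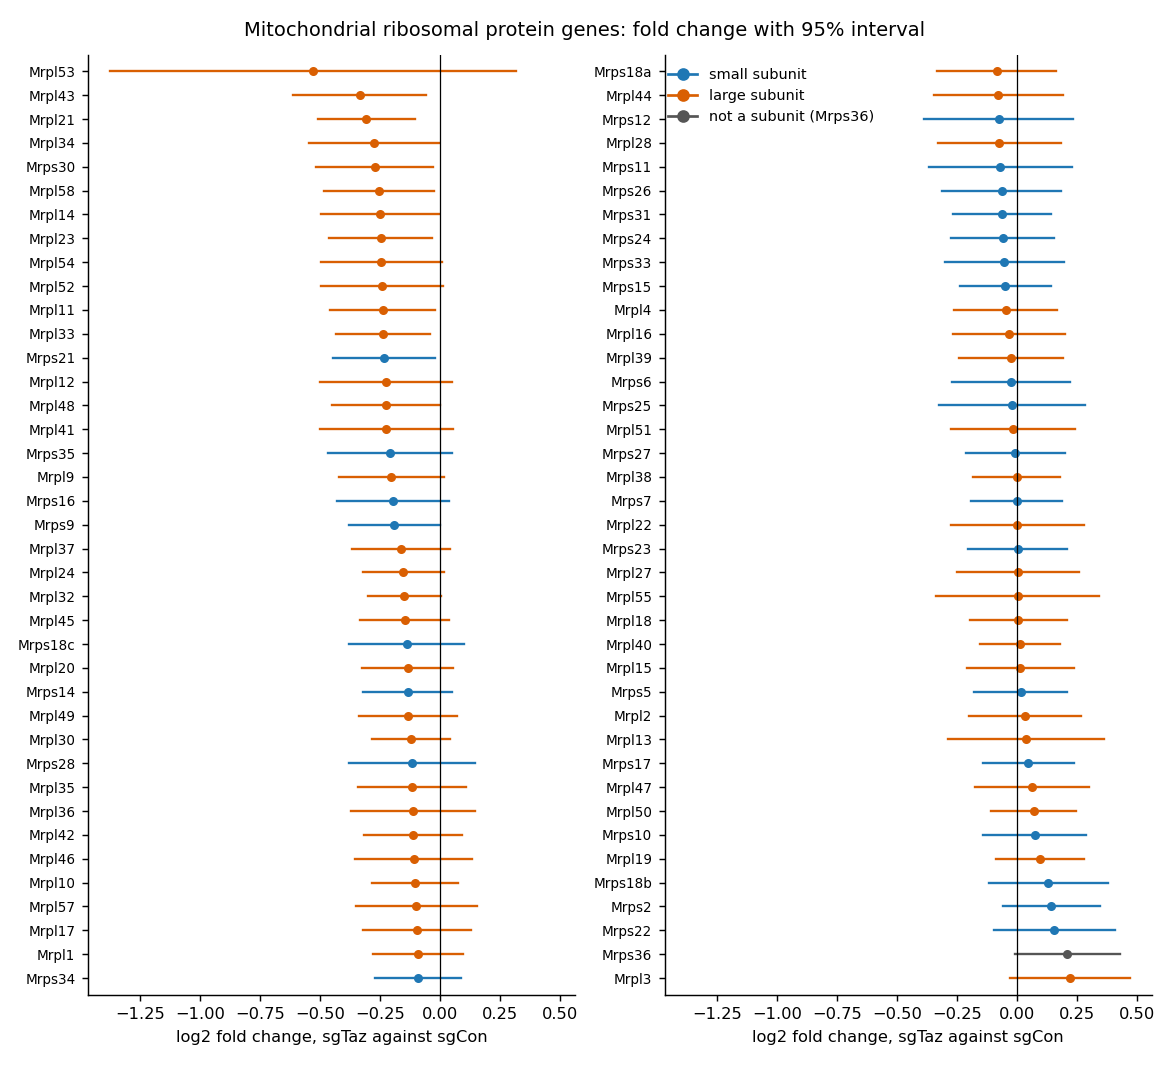
Log2 fold change, sgTaz against sgCon, of each of the 78 genes (points) with the 95% interval from edgeR (lines), ordered from lowest to highest and colored by subunit. Of the 78 points 58 lie left of 0, and 12 intervals lie wholly below 0 and 0 wholly above it.

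Of the 12 members at an unadjusted p below 0.05, 10 encode large-subunit proteins, to which 51 of all 78 members belong. Mrpl21 (GRCm38 chr19:3282901-3292837), a large-subunit protein with a bacterial homologue, had the smallest p. It was at 35.7, 31.8, 28.7, 35.4 and 34.8 CPM in sgCon tumors 1 to 5 and at 30.0, 26.9, 25.9, 27.8 and 23.8 CPM in sgTaz tumors 1 to 5. Of the sgCon tumors, 4 were above all sgTaz tumors, and sgCon tumor 3 lay within the sgTaz range. The means were 33.3 ± 2.99 and 26.9 ± 2.29 CPM (SD), a log2 fold change of -0.31 ± 0.092 (SE, edgeR, adjusted p = 0.114). The exact two-sided permutation test over the 10 tumors gave p = 0.0159, and limma-voom an adjusted p of 0.0296.

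Mrpl33 (GRCm38 chr5:31596935-31664384), another large-subunit protein of bacterial descent, was at 55.0, 65.3, 62.4, 69.3 and 60.9 CPM in sgCon tumors and at 61.1, 55.9, 49.5, 49.5 and 49.1 CPM in sgTaz tumors. The sgTaz tumors 3, 4 and 5 lay below every sgCon tumor, whereas the sgTaz tumors 1 and 2 lay within the sgCon range. The log2 fold change was -0.24 ± 0.089 (SE, edgeR, adjusted p = 0.163), with an adjusted p of 0.0380 by limma-voom.

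Mrpl43 (GRCm38 chr19:45004829-45006442), specific to mitochondria, had the lowest fold change after Mrpl53. It was at 36.3, 35.9, 45.4, 50.6 and 38.6 CPM in sgCon tumors and at 37.2, 38.2, 29.8, 27.9 and 30.6 CPM in sgTaz tumors. The groups overlapped through the sgTaz tumors 1 and 2. Its log2 fold change was -0.34 ± 0.13 (SE, edgeR, adjusted p = 0.167). Of its exon bases 33.4% are also annotated to Twnk, the mitochondrial DNA helicase on the opposite strand, and whether counting used the strand is not stated. Twnk itself was at a log2 fold change of -0.074.

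Mrpl58 and Mrps30 are known for more than a place in the ribosome. Mrpl58 is a peptidyl-tRNA hydrolase, an enzyme that frees peptides from stalled ribosomes, and is built into the large subunit. It was at 28.2, 28.9, 35.7, 31.7 and 30.5 CPM in sgCon and at 29.0, 26.5, 28.8, 22.1 and 23.3 CPM in sgTaz tumors, with overlap between the groups (log2 fold change -0.26 ± 0.105, SE, edgeR, adjusted p = 0.193). Mrps30, first described as a cell death protein and placed in the large subunit, was at 18.7, 19.8, 19.4, 21.5 and 19.2 CPM in sgCon tumors and at 19.5, 16.2, 17.6, 13.8 and 14.3 CPM in sgTaz tumors. In 4 of the 5 sgTaz tumors Mrps30 lay below the whole sgCon range (log2 fold change -0.27 ± 0.11, SE, edgeR, adjusted p = 0.191).

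The other 7 had log2 fold changes between -0.28 and -0.19. Among large-subunit proteins, these were Mrpl34 (-0.28), Mrpl14 (-0.25), Mrpl23 (-0.25), which lies near the exit of the peptide tunnel, Mrpl11 (-0.24), at the base of the stalk, and Mrpl48 (-0.23). Mrps21 (-0.23) and Mrps9 (-0.19) were the only small-subunit proteins of the 12. The adjusted p of these 7 by edgeR lay between 0.179 for Mrpl23 and 0.227 for Mrps9. In each of the 12 the ranges of the groups overlapped.

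**Figure D3:**
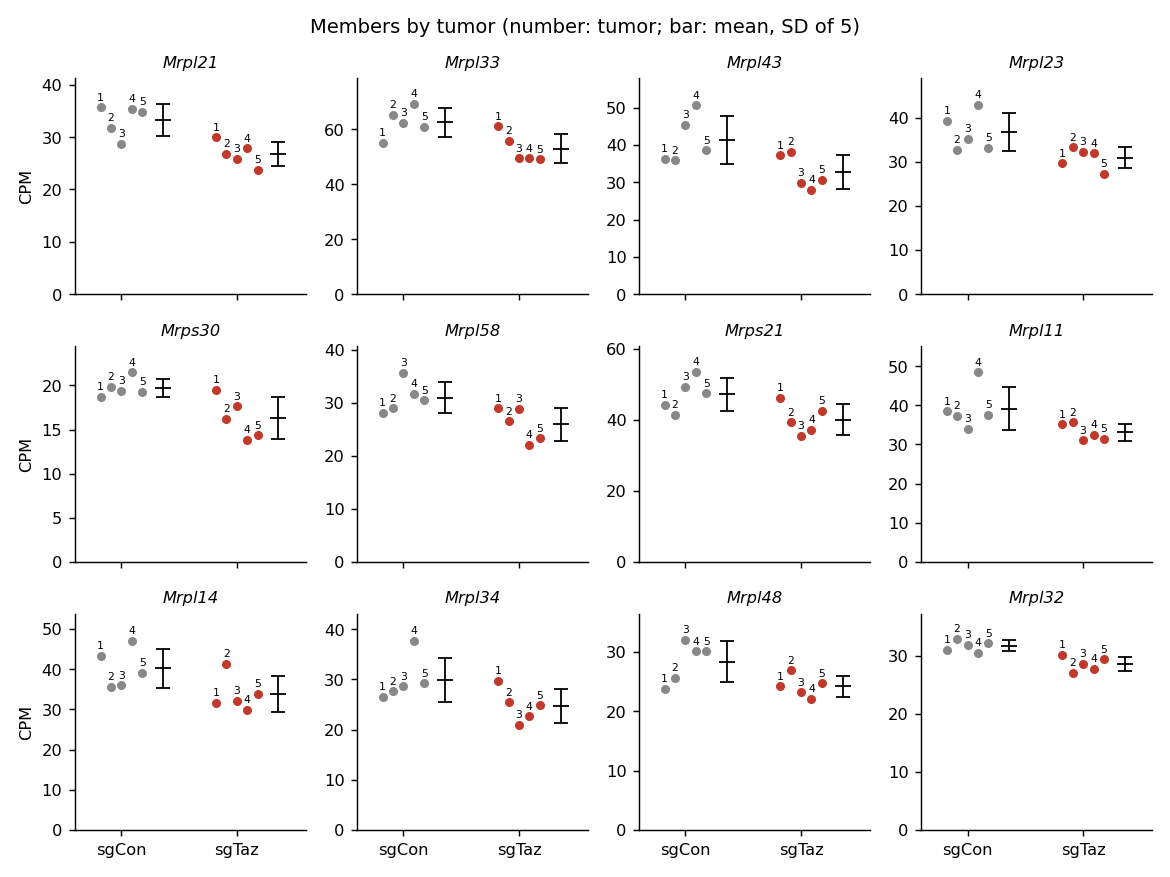
CPM by tumor (axis from 0) of the 11 genes with the smallest p and of Mrpl32, with gray points for sgCon and red points for sgTaz tumors, the tumor number above each point, and a bar for the mean and SD of 5 tumors. Only in Mrpl32, the last panel, does no sgTaz tumor reach the sgCon range, and sgCon tumor 4 is the highest sgCon tumor in most panels.

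Mrpl32 was the only member whose groups did not overlap (0 members higher, all genes: 2.44%, and 1 lower, all genes: 2.13%). Mrpl32 is a large-subunit protein that a protease of the inner membrane must cut before it can be assembled. It was at 31.1, 33.0, 31.9, 30.6 and 32.2 CPM in sgCon tumors 1 to 5 and at 30.2, 27.1, 28.6, 27.8 and 29.4 CPM in sgTaz tumors 1 to 5. All sgTaz tumors were below all sgCon tumors, although sgTaz tumor 1 and sgCon tumor 4 were close. The log2 fold change was -0.15 ± 0.069 (SE, edgeR, p = 0.0511, adjusted p = 0.232), and the exact two-sided permutation p was 0.00794. That permutation p is the smallest that 5 against 5 tumors can give. Groups that do not overlap always reach it, so it adds nothing to the lack of overlap. Mrpl32 also had the smallest spread of all members, an SD of 0.053 of log2 CPM within groups. Its head-to-head neighbor Psma2, a proteasome subunit, had a log2 fold change of -0.20 ± 0.059 (SE, edgeR, adjusted p = 0.114).

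Some members were higher in sgTaz tumors, although none at an unadjusted p below 0.05. Mrpl3, a large-subunit protein near the peptidyl transferase center (named after its value was seen), was at 27.4, 23.2, 26.3, 24.9 and 20.6 CPM in sgCon tumors and at 24.6, 25.3, 31.1, 28.0 and 33.5 CPM in sgTaz tumors. Its sgTaz tumors 3, 4 and 5 lay above every sgCon tumor (log2 fold change 0.22 ± 0.11, SE, edgeR, adjusted p = 0.286). Mrps36 (GRCm38 chr13:100735955-100744659), the member that is no ribosome subunit, was at 15.1, 14.2, 13.8, 14.0 and 13.6 CPM in sgCon tumors and at 15.8, 16.5, 18.2, 17.3 and 13.9 CPM in sgTaz tumors. In 4 of 5 sgTaz tumors it was above all sgCon tumors, sgTaz tumor 5 being the exception (log2 fold change 0.21 ± 0.10, SE, edgeR, adjusted p = 0.248). Of its transcript sequence 36.2% is shared with pseudogenes in runs of 50 bases, so its count is uncertain.

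The 3 paralogues Mrps18a, Mrps18b and Mrps18c, related to a single bacterial protein, did not share one sign. Mrps18c, in the small subunit, was at 29.5 ± 4.02 CPM in sgCon and 26.8 ± 2.54 CPM in sgTaz tumors (SD, n = 5 each), a log2 fold change of -0.14 ± 0.11. Mrps18a, in the large subunit, was at 31.6 ± 5.44 and 29.8 ± 1.76 CPM, a log2 fold change of -0.086 ± 0.11. Mrps18b, in the small subunit, was at 19.7 ± 2.81 and 21.5 ± 1.80 CPM, a log2 fold change of 0.13 ± 0.11. None of the 3 differed beyond the spread between tumors (SE, edgeR, adjusted p from 0.473 to 0.689). Differences between the 3 genes were not tested. Of the exon bases of Mrps18b 30.5% are also annotated to a gene on the opposite strand. Of its transcript sequence 63.7% is shared with other genes in runs of 50 bases. Of the exon bases of Mrps18c 23.2% are also annotated to a gene on the same strand, so the counts of both are uncertain.

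Both subunits had negative medians, and no subunit or origin held a member called by edgeR. Mrpl21 and Mrpl33, which limma-voom called, are large-subunit proteins with a bacterial homologue. The median log2 fold change was -0.057 for the 26 small-subunit members, of which 2 were lower at an unadjusted p below 0.05, and -0.11 for the 51 large-subunit members, of which 10 were. It was -0.085 for the 46 members with a bacterial homologue (8 lower) and -0.092 for the 31 specific to mitochondria (4 lower). Over all genes tested, 11.9% were lower at that p. In Mrps12, a protein of the decoding center, the fold change was -0.078 ± 0.14, and in Mrpl12 it was -0.23 ± 0.12 (SE, edgeR, adjusted p = 0.780 and 0.312). Whether the subunits differ was not tested.

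The members varied little between tumors of a group and often together. The median SD of log2 CPM within groups was 0.149 for the members and 0.226 for all genes. It was 0.142 for the cytosolic ribosomal proteins and 0.158 for the nuclear respiratory chain genes, so a small spread is not particular to the members. Mrpl53 (0.57), Mrpl13 (0.26) and Mrps25 (0.23) varied most, and Mrpl32 (0.053), Mrpl40 (0.078) and Mrpl19 (0.095) least. Of the exon bases of Mrps25, 69.8% are also annotated to Nr2c2 on the opposite strand, and 33 members in all share exon bases with another annotated gene, so that their counts may be shared. After the group means were taken off, the correlation between 2 members over the 10 tumors had a median of 0.38 over 3003 pairs. It was above 0 in 77.4% of them. With the offsets for GC content and length described below, the median was 0.295 and 72.2% were above 0. Pairs of other genes were not compared. These pairs share the same libraries and their scaling, and no p is given. Mrpl52 and Mrps24, one protein from each subunit, had the highest correlation (0.98), and the head-to-head pair Mrps11 and Mrpl46 had one of 0.33. Mrps22 ran opposite to several members, with a lowest value of -0.90 against Mrpl48.

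These shared differences set 1 tumor of each group above the rest. The CPM of the 78 members summed to 2722, 2800, 2896, 3265 and 2732 in sgCon tumors 1 to 5 and to 2998, 2768, 2586, 2592 and 2567 in sgTaz tumors 1 to 5. Within the sgCon group, sgCon tumor 4 was the highest in 53 of 78 members, and within the sgTaz group, sgTaz tumor 1 in 46 of 78. Mrpl12, for example, was at 111.3 CPM in sgCon tumor 4 and between 73.2 and 84.0 CPM in the other sgCon tumors. In the summed CPM of nuclear respiratory chain genes sgCon tumor 4 was also the highest sgCon tumor (9844, others 8166 to 8870). The same held for the cytosolic ribosomal proteins (92678, others 72463 to 86083). Among sgTaz tumors, tumor 1 was highest for the respiratory chain genes (8949, others 7754 to 8029) and tumor 2 for the cytosolic ribosomal proteins (66436). Without sgCon tumor 4, the median log2 fold change of the members was -0.047. Then 47 members were below 0, and 2 members were lower at an unadjusted p below 0.05 (all genes: 12.6%). Of the sgTaz tumors, tumor 5 held the most lymphocyte RNA. Without sgTaz tumor 5, 3 members were lower (all genes: 11.6%) and 1 was higher (all genes: 8.59%). The member median was then -0.073, and no member was called (all genes: 0.28% higher, 0.868% lower). Left out in turn, sgCon tumor 3 left 6 lower members (all genes: 9.73%), sgTaz tumor 3 left 4 (all genes: 8.46%) and sgTaz tumor 4 left 2 (all genes: 8.54%). The members with a fold change below 0 in the main test and in all 20 alternatives numbered 31, and 8 were above 0 in all of them.

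Mitochondrial ribosomal protein genes are short, and in these libraries short genes as a whole lay lower in sgTaz tumors. Genes were split by exon length into 5 bins of like size. In the bin of the shortest, below 2298 bases, which holds 39 of the 78 members, the median log2 fold change was -0.13 over all genes and -0.078 over the members. In the bin of the longest, above 7299 bases, it was 0.063 over all genes and -0.099 over 7 members. With offsets that remove smooth trends with GC content and length, the median was -0.023 over the members and -0.016 over all genes, 43 members were below 0, 9 were lower and 3 higher at an unadjusted p below 0.05 (all genes: 11.7% lower, 9.36% higher), and none was called. Of the 12 lower members, 7 were still lower at that p. The 3 higher members were Mrps36 (log2 fold change 0.33), Mrpl27 (0.27) and Mrpl2 (0.26), named after their values were seen. Mrpl34 and Mrps21, which have short transcripts, changed sign to 0.32 and 0.20, whereas Mrpl21 stayed at -0.25, Mrpl33 at -0.31 and Mrps30 at -0.39. What underlies the length trend was not tested.

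**Figure D4:**
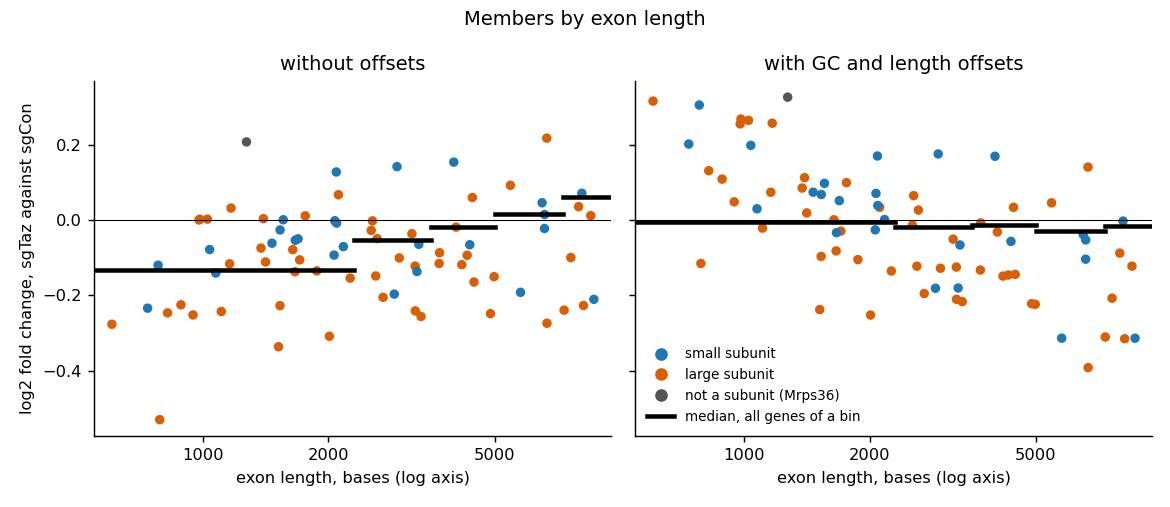
Log2 fold change, sgTaz against sgCon, of the 78 genes (points, colored by subunit) against exon length in bases (log axis), from edgeR without (left) and with (right) offsets for GC content and length, and the median of all genes in each of 5 bins of length (black bars). On the left the bars climb from -0.13 in the shortest to 0.063 in the longest bin, and on the right they lie near 0, while the members have a median of 0.069 in the shortest and -0.21 in the longest bin.

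Among the other components of mitochondrial translation no gene passed the test by edgeR. Over all genes tested, 11.9% were lower and 9.86% higher at an unadjusted p below 0.05. These shares belong beside the counts of the main test in each list below. Of the 5 subunits without an Mrp symbol, Aurkaip1 was lower at an unadjusted p below 0.05 (41.2 ± 6.25 against 34.2 ± 2.58 CPM, SD, n = 5 each, log2 fold change -0.27, edgeR adjusted p = 0.189). Dap3, a GTP-binding protein of the small subunit, was at -0.14, Gadd45gip1 at -0.21, Chchd1 at 0.035 and Ptcd3 at 0.15 on the log2 scale. Of 29 factors that assemble the ribosome or modify its RNA, 3 were lower and 1 was higher at that p, with a median of -0.065. Of the 3 lower at that p, Mettl17 (-0.34) and Gtpbp6 (-0.32), both assembly factors, had the lowest fold changes. Rpusd3 (-0.57) and Ybey (-0.36) lay lower still, at an unadjusted edgeR p of 0.064 and 0.068. Gtpbp10, a GTPase of large-subunit assembly, was higher (0.29, edgeR adjusted p = 0.160) without overlap between the groups. In this list 1 gene was higher and 1 lower without overlap (all genes: 2.44% and 2.13%).

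None of 13 translation factors differed at an unadjusted p below 0.05 (median -0.043), and Tufm, the elongation factor that brings aminoacyl-tRNA to the ribosome, was at 0.11. Of 17 mitochondrial aminoacyl-tRNA synthetases, 1 was lower, Tars2 (-0.21), with a median of -0.019. Of 17 genes of mitochondrial transcription and RNA, 2 were lower and 1 higher, with a median of -0.082. Polg, the polymerase that copies mitochondrial DNA, was at -0.23 and Tfam, which packages that DNA and starts its transcription, at -0.20. Lrpprc, which stabilizes mitochondrial messenger RNAs, was at 0.19 without overlap between the groups (all genes higher without overlap: 2.44%). Polrmt, the RNA polymerase, was at -0.086.

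Of the 8 regulators of mitochondrial biogenesis tested, 1 was lower, the nuclear receptor Esrra (57.3 ± 6.91 against 45.0 ± 6.98 CPM, log2 fold change -0.35, edgeR adjusted p = 0.138). Myc, which drives ribosome production, was at 122 ± 13.8 and 129.96 ± 17.2 CPM, a log2 fold change of 0.095. Of the factors whose letters were searched in the promoters, Gabpa was at 0.17, Nrf1 at -0.21 and Yy1 at -0.015. None of 12 messenger RNAs of mitochondrial DNA, the templates of this ribosome, differed at an unadjusted p below 0.05 (median -0.024). The summed level of all 13 lay between 19186 and 35650 CPM in sgCon and between 20286 and 34176 CPM in sgTaz tumors. Both mitochondrial ribosomal RNAs were at negative fold changes (-0.11 and -0.25) with SE of 0.30 and 0.29, and counts of mitochondrial genes can be lost to near-identical nuclear copies.

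As gene groups of related function, added after the data were seen, stood the cytosolic ribosomal proteins and the nuclear-encoded subunits of the respiratory chain and ATP synthase. Of 80 cytosolic ribosomal protein genes tested, 67 were lower at an unadjusted p below 0.05 (all genes: 11.9%). In 45 the sgTaz tumors lay lower without overlap (all genes: 2.13%), and the median log2 fold change was -0.32. With the offsets 51 were lower (all genes: 11.7%) and the median was -0.27. Of 75 respiratory chain genes, 17 were lower, 3 had no overlap, and the median was -0.14, or 0.012 with the offsets. No gene of either group had an adjusted p below 0.05 by edgeR over the 10 tumors. DESeq2 and limma-voom each called 49 of the 80 cytosolic ribosomal protein genes lower, and they called 2 and 7 of the 75 respiratory chain genes lower. Over all genes tested, the shares called lower were 3.62% by DESeq2 and 5.8% by limma-voom. The corresponding values of the mitochondrial ribosomal proteins were 12 lower of 78, 1 without overlap and a median of -0.089. The difference between the groups of genes was not tested, and all rest on the same 10 tumors.

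**Figure D5:**
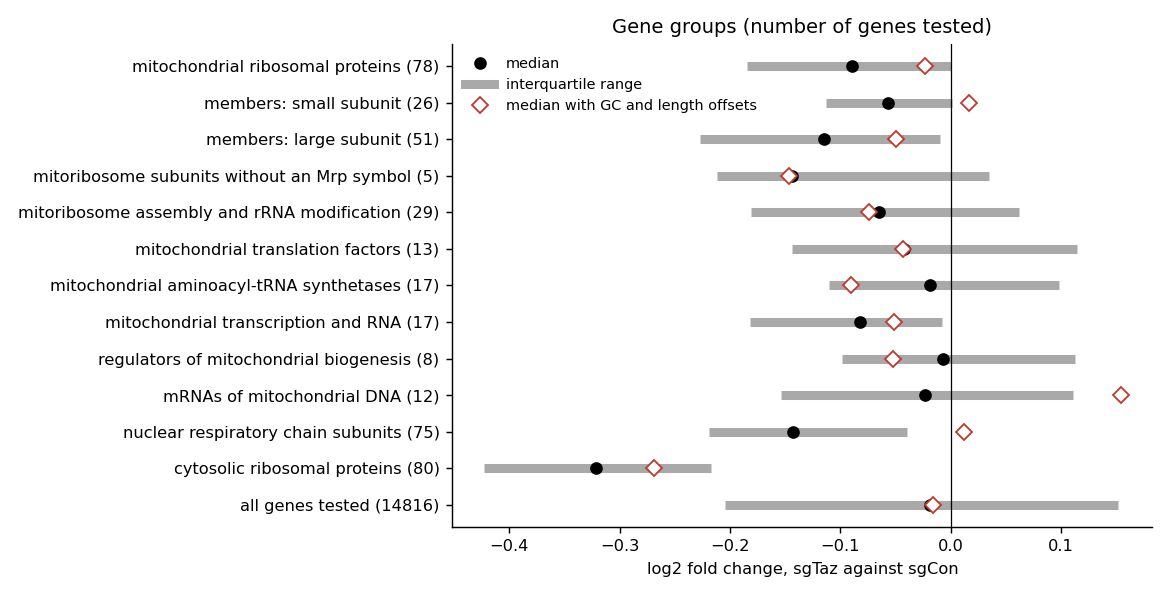
Log2 fold change, sgTaz against sgCon, by gene group, with the number of genes tested in parentheses, the median (black circle), the interquartile range of the genes (gray bar) and the median with GC and length offsets (open diamond). The median of the mitochondrial ribosomal proteins is -0.089, between -0.32 for the cytosolic ribosomal proteins and -0.019 for all genes tested.

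Markers of the cells that a whole tumor can hold were read beside these values. All 10 markers of epithelial tumor cells had a fold change below 0, 5 at an unadjusted p below 0.05, and their summed level lay between 2242 and 5222 CPM in sgCon and between 1664 and 4078 CPM in sgTaz tumors. None of them was at 0 in a tumor. Of 10 B cell markers 8 were lower at that p, with Blk, Cr2, Fcer2a and Ms4a1 at 0 counts in at least 1 tumor, and all 8 T cell markers were lower (239 to 934 CPM in sgCon, 163 to 332 CPM in sgTaz). Of 8 neutrophil markers tested, 4 were lower, including S100a8 (-1.44) and S100a9 (-1.37), with a summed level of 189 to 768 CPM in sgCon and 70.1 to 294 CPM in sgTaz tumors. Of 10 macrophage markers 5 were higher, summed at 861 to 1957 CPM in sgCon and at 1687 to 2273 CPM in sgTaz tumors. Of 10 proliferation markers 3 were higher, among them Top2a (0.51) and Mki67 (0.31). The fold change was below 0 for 3 others, Cdk1 (-0.030), Mcm5 (-0.019) and Pcna (-0.037). Proliferation markers summed to 1501 to 1814 CPM in sgCon and to 1765 to 2430 CPM in sgTaz tumors. No marker had an adjusted p below 0.05 by edgeR over the 10 tumors, whereas DESeq2 and limma-voom called some. Over all genes tested, DESeq2 called 3.62% lower and 3.6% higher, and limma-voom 5.8% lower and 4.63% higher. DESeq2 called 2 epithelial and 4 T cell markers lower and 3 macrophage markers and 1 proliferation marker higher. Limma-voom called 3 epithelial, 9 B cell, 4 T cell and 3 neutrophil markers lower and 4 macrophage markers and 1 proliferation marker higher. Of 8 fibroblast markers, each of these tools called 1 lower and 1 higher. The lower one was Thy1, which is also counted among the T cell markers, and the higher one was Pdgfra. Without sgTaz tumor 5, edgeR called 9 B cell markers lower (all genes: 0.868%). Without sgTaz tumor 2 it called 1 epithelial marker lower and 1 fibroblast marker higher (75 of 15041 genes in both directions). None of the tested markers of lymph node stroma, endothelium, adipocytes, red blood cells or skeletal muscle had an unadjusted p below 0.05. In sgTaz tumors 1 and 2, where the members summed highest, adipocyte markers summed to 58.6 and 44.6 CPM. They summed to 203 to 228 CPM in sgTaz tumors 3 to 5 and to 70.8 to 122 CPM in sgCon tumors. Among sgTaz tumors, endothelial and red blood cell sums were also lowest in tumors 1 and 2, and skeletal muscle sums were not. The part of cell composition in the values of the mitochondrial ribosomal proteins was not tested.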

How the data were processed

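RNA-seq of 10 whole 4T1 tumors was used, 5 sgCon and 5 sgTaz, grouped by the sample labels. Per the methods, the authors mapped reads to mm10 (GRCm38) with STAR in 2-pass mode and GENCODE annotation, and counted reads per gene with featureCounts of Subread. The deposited values are these whole-number counts of the authors, without normalization. Tool versions, the strand setting and how genes were selected for the table are not given in the sources used here. 5 further columns of the table were not used. Nothing in the labels ties tumors of the 2 groups to each other, and replicates were taken as separate tumors. Whether they came from separate mice is not stated, so p-values measure the spread between these tumors.

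Identifiers were matched to GENCODE M21 (17860 of 17864), which gave symbols, coordinates and exon length. GC content is that of the longest transcript. Counts were fitted over the whole table with edgeR 4.0.16 in R 4.3.3 (TMM, filterByExpr by group, quasi-likelihood test, Benjamini-Hochberg adjusted p below 0.05 over 14816 genes). 3048 genes were below the filter. TPM divides counts by exon length, and log2 CPM uses a prior count of 2. Single genes were also tested with exact two-sided permutations. Alternatives were DESeq2 1.42.0, limma-voom (limma 3.58.1) with quality weights, edgeR's bias-adjusted deviance, RLE and upper-quartile normalization, no filter, at least 10 counts in every tumor, spline offsets for GC content and length (5 degrees of freedom), the replicate number as a block, both together, and each tumor left out. The scripts were tested on simulated data. The rest was done in Python 3.11.15 (matplotlib 3.10.9, pandas 2.3.3, scipy 1.17.1, numpy 2.4.6). Promoter sequences are those of RefSeq on GRCm38.p6.

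At these depths a floor of 3 counts corresponds to a share of 1.53e-05% to 2.46e-05%, which covers counting error only. No pair of tumors in a group agreed within sampling noise.

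Members and gene lists were chosen with earlier results of these data known. Named members are up to 12 in each direction with the smallest p below 0.05, the 3 highest and 3 lowest in TPM, the 3 with the largest and the 3 with the smallest spread, and 8 listed by function. From each companion list up to 2 genes in each direction were named beside listed ones. Exceptions are marked in the text, and neighbors and overlapping genes were named for their position. The lists of cytosolic ribosomal proteins and respiratory chain subunits were added after the data were seen.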

Additional observations from a re-analysis of the deposited data

Results flagged for a closer look

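In groups of 5 tumors, 84 in all, a tumor was singled out where its gap to the next tumor exceeded 0.71 of the range of the group (Dixon's test). This happened 7 times, and chance gives about 1 in 20, or 4.2 of 84. Among the members, Mrpl34 was at a log2 CPM of 5.24 in sgCon tumor 4, against 4.73 to 4.88 in the other sgCon tumors, and Mrps35 at 3.72 in sgTaz tumor 5, against 4.07 to 4.15. The mean log2 CPM of the 26 small-subunit members was 5.01 in sgCon tumor 4, against 4.77 to 4.84, and 4.93 in sgTaz tumor 1, against 4.75 to 4.80. Of the companion genes, Myc was at 7.19 in sgCon tumor 4 (others 6.80 to 6.89), Gadd45gip1 at 4.08 in sgTaz tumor 5 (others 4.23 to 4.28) and Tfam at 5.92 in sgTaz tumor 2 (others 5.60 to 5.68). Of these 7, 3 concern sgCon tumor 4.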

How the results depend on the processing

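No member was called by edgeR under any alternative run with it, and DESeq2 called 0. Limma-voom called 2 members, and 1 gene each among the assembly factors, the transcription and RNA genes and the regulators. Of the cytosolic ribosomal protein genes, none of which edgeR called over all tumors, DESeq2 and limma-voom each called 49, and edgeR 4 without sgTaz tumor 2 and 3 without sgTaz tumor 5. Of the respiratory chain genes DESeq2 called 2 and limma-voom 7. In both directions, DESeq2 called 1070 and limma-voom 1546 of all 14816 genes tested. EdgeR called 75 of 15041 genes without sgTaz tumor 2 and 172 of 14974 without sgTaz tumor 5. The count of lower members at an unadjusted p below 0.05 was 12 in the main test (all genes: 11.9%) and 3 without a filter (all genes: 10.4%). With the replicate number as a block it was 1 (all genes: 9.44%), and with block and offsets 5 (all genes: 9.35%). With 1 tumor left out it was 2 to 14. The shares of all genes given above, from 8.46% to 12.6%, belong to fits with 2 to 6 lower members. The share beside the 14 is not given. The count of higher members at that p was 0 in the main test (all genes: 9.86%) and 1 with DESeq2 (all genes: 11.3%). It was 2 with limma-voom (all genes: 14%) and 3 with GC and length offsets (all genes: 9.36%). Without a filter it was 1, with block and offsets 2, and with 1 tumor left out 0 to 1 (all genes without sgTaz tumor 5: 8.59%). The member median lay between -0.13 and -0.047 with 1 tumor left out. Wwtr1 passed the threshold with DESeq2 (log2 fold change -0.58) and limma-voom (-0.59). Same-numbered tumors of the 2 groups did not deviate together (r of -0.15, -0.24, -0.049, 0.093 and 0.22), so the numbers were not read as pairs.

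Signs turned, with no value called, in these cases. With offsets and with block and offsets, Mrps21 was at 0.20 and 0.19, Mrpl14 at 0.049 and 0.057, Mrpl34 at 0.32 and 0.30, Mrps10 at -0.0018 and -0.0023, Mrpl13 at -0.087 and -0.078, Mrps18c at 0.031 and 0.030, and Mrps12 at 0.20 and 0.20. Mrps18a was at 0.0071 with block and offsets, Mrps25 at 0.0013 without a filter, and Mrpl40 at -0.0053 with limma-voom. With 1 tumor left out, Mrps25 lay between -0.12 and 0.087, Mrpl13 between -0.076 and 0.17, Mrpl40 between -0.015 and 0.039 and Chchd1 between -0.014 and 0.096, and without sgCon tumor 4 Mrps18a turned to 0.024 and Mrps12 to 0.037. The causes were not tested. Depth limits Mrpl53, with 5 counts at its lowest, more than the members with at least 100 counts in every tumor.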
